A study of Mus musculus with 2 samples.

Results

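The microRNA genes Mir99a, Mir99b, Mir100, Mir125a, Mir125b-1 and Mir125b-2 were measured by small RNA sequencing in left cerebral cortex tissue of B6CASTF1/J females, 25 days old. The 6 genes were taken by gene name from the 2202 microRNA genes of the count tables, and all 6 were found. The mice are the F1 offspring of a C57BL/6 and a wild-derived CAST parent, and no allele or treatment is named in the labels. There was 1 group with 2 libraries, labelled as biological replicates 1 and 2. The labels give the animals separate numbers under a single donor record, so nothing else shows that the replicates were separate animals. No condition was compared, and every contrast between libraries below is a contrast between these 2 samples.

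MicroRNAs are cut from a hairpin precursor into a short guide RNA, whose seed (bases 2 to 8) pairs with target mRNAs and lowers their output. The Mir99, Mir100 and Mir125 genes sit with let-7 genes in 3 clusters, each with the order Mir99 or Mir100, let-7, Mir125. miR-125 is the vertebrate relative of lin-4, the worm timing microRNA that acts with let-7, and let-7 and miR-125 both rise as neural progenitors mature. miR-99 and miR-100 are known for targeting the growth kinase mTOR, and miR-125b for acting on dendritic spines with the fragile X protein FMRP.

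The arms that carry the seeds are shown first, because a count table can separate these genes only where their sequences differ. The RefSeq table of microRNAs (build GRCm38.p6) held mature entries for 6 of 6 genes and hairpin entries for 4. The 5′ arms follow, with the seed in capitals.
miR-99a-5p: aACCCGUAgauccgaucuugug
miR-100-5p: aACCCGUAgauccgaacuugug
miR-99b-5p: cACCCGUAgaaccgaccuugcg
miR-125a-5p: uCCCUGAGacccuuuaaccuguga
miR-125b-5p: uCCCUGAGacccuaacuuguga

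The 6 genes thus made 5 distinct 5′ arms with 2 seeds. Counting from the 5′ end, miR-99a-5p and miR-100-5p differed by 1 substitution, U16A, outside the seed. miR-99b-5p differed from miR-99a-5p by A1C, U11A, U16C and U21C, and none of these lies in the seed either. miR-125a-5p shared its first 13 bases with miR-125b-5p. The sequence of miR-125b-5p is the same from Mir125b-1 and Mir125b-2, so a read of that arm does not identify its gene.

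The 3′ arms were all distinct and are shown because they are the part in which the Mir125b genes differ, again with bases 2 to 8 in capitals.
miR-99a-3p: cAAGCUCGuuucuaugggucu
miR-99b-3p: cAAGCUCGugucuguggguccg
miR-100-3p: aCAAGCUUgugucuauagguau
miR-125a-3p: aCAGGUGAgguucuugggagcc
miR-125b-1-3p: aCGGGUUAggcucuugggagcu
miR-125b-2-3p: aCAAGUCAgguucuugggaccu

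The 3′ arms of Mir99a and Mir99b shared bases 2 to 8, while the other 4 had a sequence of their own there. miR-125b-1-3p and miR-125b-2-3p differed by G3A, G4A, U7C, C11U and G20C. A gene count joins both arms, which the Mir125b-1 hairpin shows with its arms in capitals.
Mir125b-1: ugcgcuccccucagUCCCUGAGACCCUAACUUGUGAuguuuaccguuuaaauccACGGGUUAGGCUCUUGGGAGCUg

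Searched on their own strand against all 2202 annotated microRNA transcripts, Mir125b-1 and Mir125b-2 shared a longest exact stretch of 24 nt, the whole 5′ arm included. Mir99a and Mir100 shared 16 nt at most, Mir125a shared 14 nt with both Mir125b genes, and Mir99b shared under 12 nt with any. At a stretch of 20 nt, 2 of the 6 genes shared a sequence with another microRNA gene, against 1084 of 2202 (49.2%) over the whole annotation. Among the let-7 neighbours, Mirlet7c-1 and Mirlet7a-2 each shared 23 nt with another let-7 gene, and Mirlet7e shared 17 nt with Mir7k, a gene of the let-7 type.

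The clusters differ in length and in host gene. On mm10 (GENCODE M21), Mir99b (ENSMUSG00000065396.1, chromosome 17, 17830188 to 17830257), Mirlet7e (17830352 to 17830444) and Mir125a (ENSMUSG00000065479.2, 17830812 to 17830879) span 692 bp on the plus strand. Mir99b lies in an intron of Spaca6, a gene of sperm and egg fusion. Mir125a overlaps a Spaca6 exon by 47 bp, and it lies whole within the window from 250 bases before to 50 after a RefSeq start of Spaca6 (17830725 to 17831024). Because that exon is on the same strand, small RNA from it cannot be told apart from Mir125a in the overlap.

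The other 2 clusters are alike in layout and far longer. Mir99a (ENSMUSG00000065530.1, chromosome 16, 77598936 to 77599000), Mirlet7c-1 (77599657 to 77599750) and Mir125b-2 (ENSMUSG00000065472.1, 77646273 to 77646343) span 47408 bp of an intron of the noncoding gene Mir99ahg. Mir100 (ENSMUSG00000093011.1, chromosome 9, 41531425 to 41531504), Mirlet7a-2 (41536716 to 41536811) and Mir125b-1 (ENSMUSG00000093354.1, 41581926 to 41582002) span 50578 bp of introns of the noncoding genes 3110039I08Rik and Gm49317. Mir125b-1 also lies whole in an exon of the short sense transcript Gm28119, Mir100 lies in an exon of Gm48742 on the opposite strand, and Mir125b-2 overlaps an exon of C130023A14Rik by 4 bp. The last gap is 46522 bp on chromosome 16 and 45114 bp on chromosome 9, against 367 bp on chromosome 17.

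**Figure D1:**
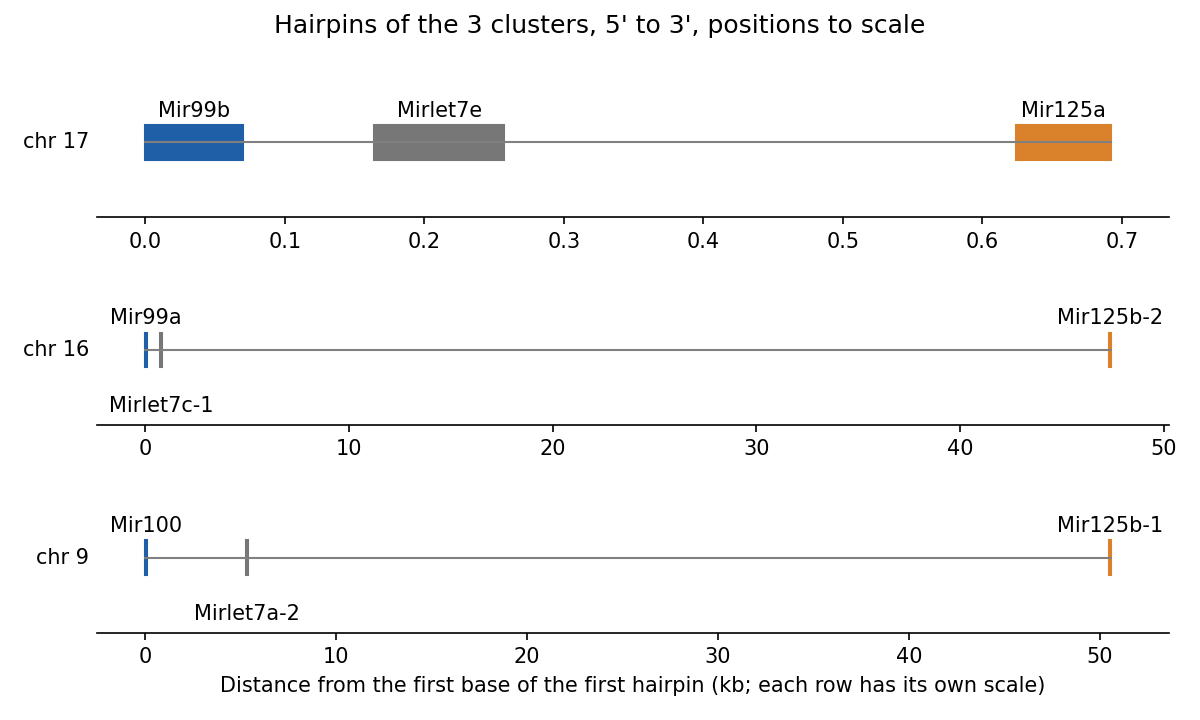
Hairpins of the 3 clusters along their plus strand, as distance in kb from the first base of the first hairpin, with a separate scale in each row. The chromosome 17 cluster spans 692 bp, while in the other 2 clusters the Mir125b gene lies over 45 kb beyond the let-7 gene.

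The libraries held 3017058 and 3209361 own-strand microRNA counts in replicates 1 and 2, which are 35.5% and 34.5% of their reads, and 40.3% and 39.0% of reads were placed at several loci and belong to no gene count. A count of 0 allows 0.994 and 0.935 CPM, taken as 3 counts, where CPM is a gene's own-strand count scaled to a sum of 1000000 over all microRNA genes. Intervals here cover counting error only. Of the cortex markers, 12 neuronal genes summed to 213655 and 200785 CPM, mostly Mir139, and none was at 0 in both libraries. All 3 Mir124a genes stood at 9 counts or fewer, Mir9-2 at 5 and 7 counts and Mir9-1 at 40 and 22. These low counts do not show low levels, since reads placed at several loci are outside them. Mir451a of red blood cells was at 22.5 and 41.4 CPM, Mir122 of liver at 46.7 and 51.1 CPM, and the striated muscle gene Mir206 at 27.2 and 34.3 CPM. The other 4 striated muscle genes, Mir1a-1, Mir1a-2, Mir133a-1 and Mir133a-2, had 0 counts, which does not show absence, since reads placed at several loci are outside the counts.

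All 6 genes gave counts in both libraries, and together they held 3.73% ± 0.720 of microRNA gene counts (SD, n = 2). The share was 3.22% (exact 95% interval 3.20 to 3.24) in replicate 1 and 4.24% (4.22 to 4.26) in replicate 2. Mir99a, Mir99b and Mir100 supplied 2.28% ± 0.0967 and the 3 Mir125 genes 1.45% ± 0.624. The sum of the Mir99 and Mir100 genes was thus close in the libraries, at 2.21% and 2.35%, and that of the Mir125 genes was not, at 1.01% and 1.89%. The close sum joins genes that moved in opposite directions, with Mir99b lower and Mir99a and Mir100 higher in replicate 2. Most of the difference in the Mir125 sum was that of Mir125a.

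Mir125a, the Mir125 gene of the short cluster, had the highest mean of the 6. It gave 26739 counts (8863 CPM) in replicate 1 and 56237 counts (17523 CPM) in replicate 2, a mean of 13193 ± 6124 CPM and rank 14 among all genes. Replicate 2 was the high one, and the gap between libraries was the widest of the 6 genes. Mir487b stood directly above it in mean level and Mir128-1, a neuronal gene, directly below at 13186 ± 1882 CPM.

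Mir99a followed with 27378 counts (9074 CPM) and 40136 counts (12506 CPM), a mean of 10790 ± 2426 CPM at rank 20. Mir99b had 31528 counts (10450 CPM) and 24239 counts (7553 CPM), a mean of 9001 ± 2049 CPM at rank 24. Mir99b was the sole gene of the 6 with fewer counts in replicate 2. The ranges of Mir125a, Mir99a and Mir99b overlapped, so these 3 neighbours in the order do not differ beyond their spread. Mir382 and Mir324 lay around Mir99a in the ranking, and Mir151 and Mir23a around Mir99b.

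Mir100, whose 5′ arm differs from that of Mir99a by the single base named above, stood well below Mir99a. It had 7752 counts (2569 CPM) and 10922 counts (3403 CPM), a mean of 2986 ± 590 CPM at rank 54, between Mir485 and the oligodendrocyte gene Mir219a-2. Its higher library stayed under the lower library of Mir99b. Mir99a gave 3.53 and 3.67 times the counts of Mir100 in replicates 1 and 2.

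The Mir125b genes were the lowest of the 6. Mir125b-1 had 2982 counts (988 CPM) and 3562 counts (1110 CPM), a mean of 1049 ± 85.9 CPM at rank 99, between Mir497 and Mir322. Mir125b-2 had 757 counts (251 CPM) and 931 counts (290.1 CPM), a mean of 270.5 ± 27.7 CPM at rank 155, between Mir3475 and Mir30c-2. Mir100, Mir125b-1 and Mir125b-2 did not overlap each other in range, with means 2.85 and 3.88 times apart. Since the 5′ arm of both Mir125b genes is identical and reads placed at several loci are outside these counts, reads of that arm may be missing from both values. How many reads placed at several loci came from it was not tested.

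A read of under 30 nt covers an arm and not the hairpin, so CPM was not divided by length. Dividing by the annotated lengths, 65 to 80 nt, left the order of the 6 means as it was. In each case the gene ranked directly above or below overlapped the named gene in range.

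**Figure D2:**
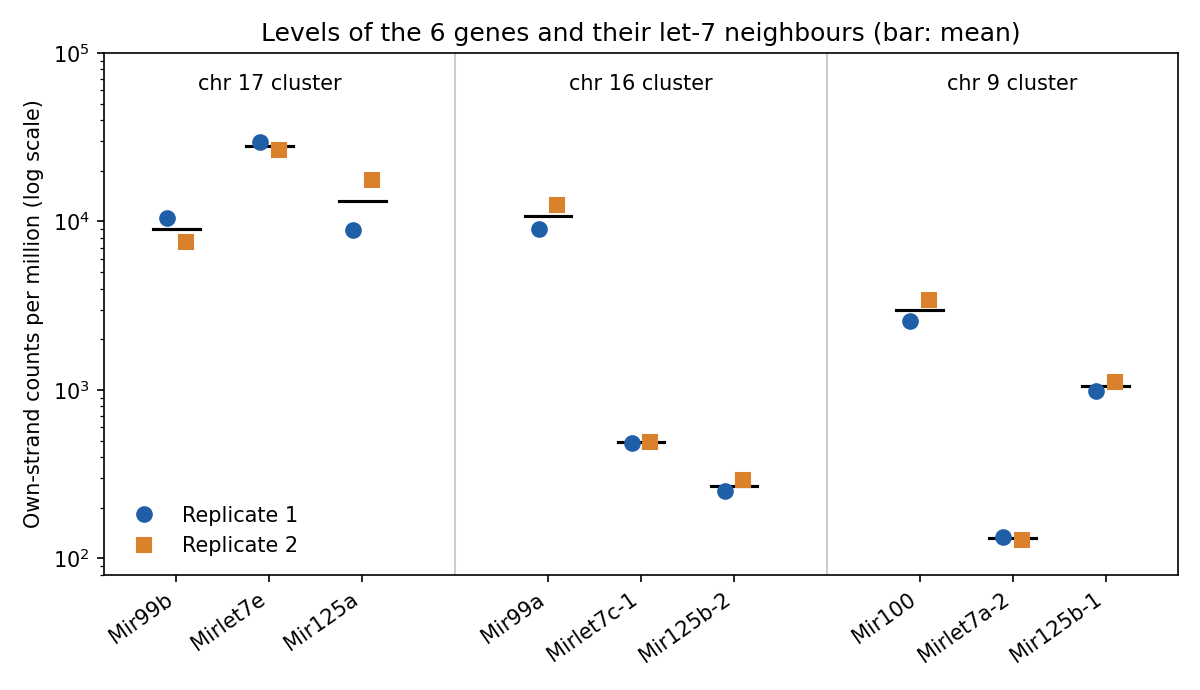
Own-strand CPM on a log axis of the 6 genes and their let-7 neighbours by cluster, with circles for replicate 1, squares for replicate 2 and a bar at the mean of the 2. Mirlet7e leads the chromosome 17 cluster at 28127 CPM, while Mir99a and Mir100 lead the other clusters and their let-7 genes stand at 488 and 131 CPM. Those 2 let-7 genes each share 23 nt with another let-7 gene, so reads placed at several loci may be missing from their values.

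The genes were next grouped by their 5′ seed, with the limit that a gene count joins both arms, so that shares of a group are shares of gene counts and not of reads with the seed. By 5′ seed, the Mir99 and Mir100 genes were the whole group with ACCCGUA in the RefSeq table. Mir99a supplied 41.1% and 53.3% of that group's counts, Mir99b 47.3% and 32.2%, and Mir100 11.6% and 14.5%. The leading gene thus changed from Mir99b in replicate 1 to Mir99a in replicate 2. The seed CCCUGAG occurred in 6 genes, of whose summed gene counts Mir125a supplied 84.6% and 90.4%, Mir125b-1 9.43% and 5.72%, and Mir125b-2 2.39% and 1.5%. For the Mir125b genes the limit is the greater, since their shared 5′ arm may be missing from the counts, and how much of their counts is 3′ arm was not measured. The remaining counts came from Mir351, an X-linked gene of this seed, at 379 and 468 CPM, while Mir6367 and Mir6394 had 0 counts. Mir351 was above Mir125b-2 in both libraries.

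The Hox cluster genes Mir10a and Mir10b, which belong to the wider miR-10 and miR-100 family, were low in both libraries. Mir10a had 23 and 21 counts (7.62 and 6.54 CPM) and Mir10b 121 and 45 counts (40.1 and 14.0 CPM). Both were below Mir125b-2, the lowest of the 6 genes, in both libraries.

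Within a cluster, counts can be compared with no library scaling, since each library is set against itself. In the chromosome 17 cluster, Mirlet7e held 60.5% of counts in replicate 1 and 51.5% in replicate 2. Mir99b held 21.3% (exact 95% interval 21.1 to 21.6) and 14.6% (14.4 to 14.8), and Mir125a held 18.1% (17.9 to 18.3) and 33.9% (33.7 to 34.1). Mir99b thus exceeded Mir125a 1.18 times in replicate 1, and Mir125a exceeded Mir99b 2.32 times in replicate 2. The order of these hairpins, which lie within 692 bp, turned between the libraries.

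By these counts, the chromosome 16 cluster was nearly all Mir99a. Mir99a held 92.5% (92.2 to 92.8) and 94.1% (93.9 to 94.3) of its counts, Mirlet7c-1 4.92% and 3.71%, and Mir125b-2 2.56% and 2.18%. Mir99a gave 36.2 and 43.1 times the counts of Mir125b-2. The order was the same in both libraries. The 5′ arms of Mirlet7c-1 and Mir125b-2 also occur in Mirlet7c-2 and Mir125b-1, so reads of these arms may be missing from the counts. How far this raises the share of Mir99a was not tested.

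In the chromosome 9 cluster Mir100 led with less of a margin. Mir100 held 69.6% (68.7 to 70.5) and 73.3% (72.6 to 74.0), Mir125b-1 26.8% and 23.9%, and Mirlet7a-2 3.61% and 2.79%. Mir100 gave 2.60 and 3.07 times the counts of Mir125b-1. The Mir125 gene was thus above its let-7 neighbour here, by 7.42 and 8.58 times, and below it in the other 2 clusters. Mirlet7c-1 and Mirlet7a-2 share their mature 5′ arms or long stretches with other let-7 genes, so their counts carry the same limit as those of Mir125b.

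**Figure D3:**
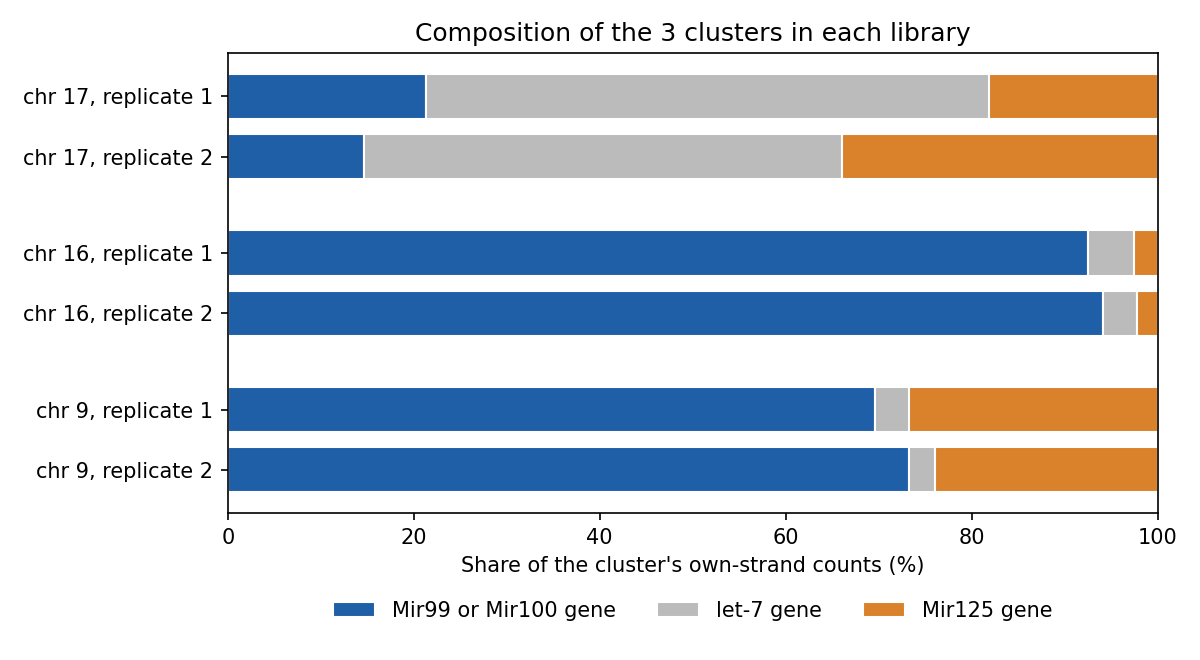
Share of each cluster's own-strand counts, in percent, held by its Mir99 or Mir100 gene, its let-7 gene and its Mir125 gene in each library. The Mir125a part of the chromosome 17 bar is 18.1% in replicate 1 and 33.9% in replicate 2, while no gene of the other 2 clusters moves by over 4 percentage points.

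Set against the let-7 gene of the same cluster, 5 of 6 ratios were higher in replicate 2. The ratio of Mir125a to Mirlet7e went from 0.299 to 0.658, a log2 difference of 1.14 (95% counting interval 1.11 to 1.16). The ratio of Mir99b to Mirlet7e went the other way, from 0.353 to 0.284 (log2 difference -0.31, interval -0.34 to -0.29). Mir99a against Mirlet7c-1 differed by 0.43 (0.32 to 0.53) and Mir100 against Mirlet7a-2 by 0.45 (0.25 to 0.65), which is nearly the same for the 2 related genes.

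The Mir125b genes lay closer to 0 against their let-7 neighbours. Mir125b-2 against Mirlet7c-1 differed by 0.18 (0.0036 to 0.35) and Mir125b-1 against Mirlet7a-2 by 0.21 (0.00054 to 0.42), with intervals that barely exclude 0. Scaled by TMM, the let-7 genes themselves were lower in replicate 2, with log2 ratios of -0.38 for Mirlet7e, -0.20 for Mirlet7c-1 and -0.27 for Mirlet7a-2, all called by the exact binomial test described below. With library totals as the scale these ratios were -0.16, 0.033 and -0.043, and of the 3 genes Mirlet7e alone was called. Mir125b-1 and Mir125b-2 were at -0.061 and -0.019 under TMM, so on that scale their higher ratios in replicate 2 come with lower let-7 values and not with higher values of their own. With library totals they were at 0.17 and 0.21, both called, so this reading depends on the scale. All these intervals cover counting error alone and leave out the spread between animals.

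**Figure D4:**
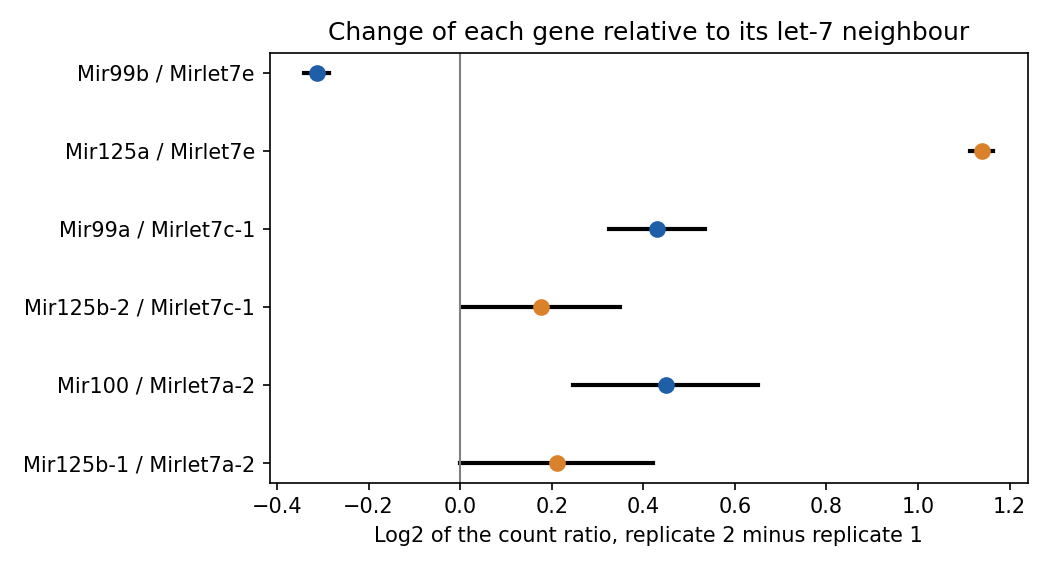
Log2 of the count ratio of each gene to its let-7 neighbour, as replicate 2 minus replicate 1, with 95% counting intervals as bars, blue points for Mir99 and Mir100 genes and orange points for Mir125 genes. Mir125a stands apart at 1.14, and Mir99b alone lies below 0.

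Across all genes, the libraries were compared by a two-sided exact binomial test with sizes scaled by the trimmed mean of M values (TMM). This asks whether 2 libraries differ by more than counting noise, and says nothing of a condition. With Benjamini-Hochberg adjustment over 496 genes, 4 of the 6 genes were called at an adjusted p under 0.05, while 56.5% of all tested genes were. The share of the members is thus near that of all tested genes, many of which have few counts. Of the 200 genes with a mean of 100 CPM or more, which include all 6 members, 180 were called. The members were thus not called more often than genes of like level. Of the members, 3 were higher in replicate 2, a call that 25.8% of all tested genes had, and 1 was higher in replicate 1, against 30.6%. Among the 200 genes of 100 CPM or more, 74 were called higher in replicate 2 and 106 higher in replicate 1.

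Mir125a had a log2 ratio of replicate 2 over replicate 1 of 0.75 (interval 0.73 to 0.78), or 1.69-fold, and Mir99b had -0.70 (-0.72 to -0.67), or 1.62-fold higher in replicate 1. Their adjusted p-values were too small to be stored as a number other than 0. Mir99a was at 0.23 (0.21 to 0.26, exact binomial test, adjusted p = 3.84e-95) and Mir100 at 0.18 (0.13 to 0.22, adjusted p = 4.95e-16). Under TMM, the differences of Mir99a and Mir100 were smaller than the median difference of well covered genes given below. With library totals Mir99a was at 0.46 and Mir100 at 0.41, and no median of absolute ratios was taken on that scale.

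Mir125b-1 had a log2 ratio of -0.061 (-0.13 to 0.0093, exact binomial test, adjusted p = 0.14) and Mir125b-2 one of -0.019 (-0.16 to 0.12, adjusted p = 0.85). Both intervals include 0, and neither shows that the libraries were alike. Scaling by library totals in place of TMM raised every log2 ratio by 0.23, and with it Mir125b-1 was at 0.17 (adjusted p = 8.23e-06) and Mir125b-2 at 0.21 (adjusted p = 0.0067), so that 6 of 6 genes were called. That scaling also turned the balance over all genes from 152 higher in replicate 1 and 128 higher in replicate 2 to 102 and 180. Directions of Mir125a, Mir99a, Mir100 and Mir99b were the same under both scalings.

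By size, the 6 genes had a median absolute log2 ratio of 0.21 and the 200 genes whose mean CPM was 100 or more had one of 0.42. None of the 6 was over 2-fold apart, against 27 of those 200. Of the 200 genes, 43 had a larger absolute ratio than Mir125a, 50 than Mir99b, 151 than Mir99a, 171 than Mir100, 188 than Mir125b-1 and 196 than Mir125b-2. All of these ratios are scaled by TMM. On that scale Mir125a and Mir99b thus lay among the more different of these genes, and the Mir125b genes among the least different. With library totals Mir99b was at -0.47, Mir125b-1 at 0.17 and Mir125b-2 at 0.21, and the ranking was not repeated on that scale. Over all tested genes the biological coefficient of variation was 36.7%, estimated with edgeR and an intercept alone.

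**Figure D5:**
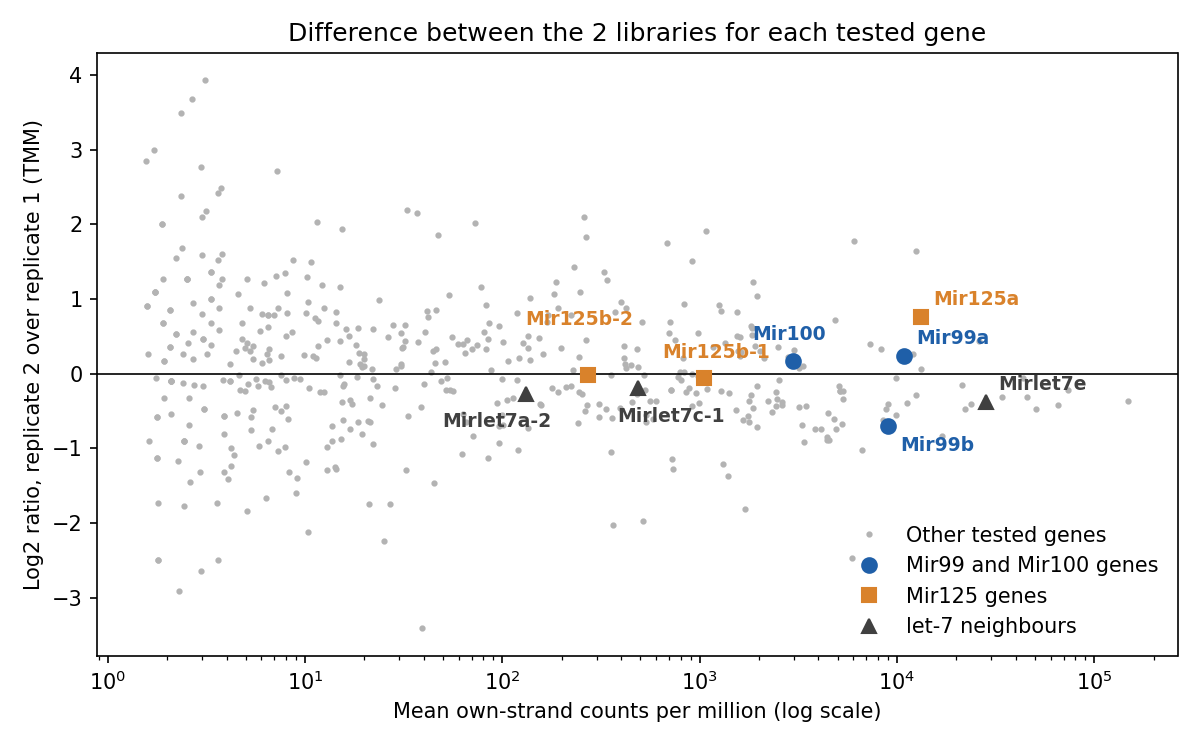
TMM-scaled log2 ratio of replicate 2 over replicate 1 against mean CPM on a log axis, for the 493 tested genes with counts in both libraries. The 6 genes and their let-7 neighbours are marked, with Mir125a at 0.75, Mir99b at -0.70 and the other 4 genes within 0.24 of 0.

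Markers of other cell types also moved between the libraries, as did most well covered genes, with 180 of the 200 genes at 100 CPM or more called. The oligodendrocyte genes Mir219a-1, Mir219a-2 and Mir338 summed to 3662 and 5626 CPM, and the endothelial gene Mir126a was at 5714 and 8835 CPM, so both were higher in replicate 2, as Mir125a was. The smooth muscle genes Mir143 and Mir145a summed to 6298 and 3730 CPM, and Mir142, Mir150 and Mir223 of immune cells to 2061 and 1627 CPM, so both were higher in replicate 1, as Mir99b was. Mir150 made up most of the immune sum, at 1967 and 1562 CPM. By CPM, the neuronal sum given above was also higher in replicate 1, and Mir451a, Mir122 and Mir206 were higher in replicate 2. None of these marker genes was at 0 in both libraries. Their part in the differences was not tested, and in bulk tissue fewer cells of a type and less RNA per cell cannot be told apart.

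On the strand opposite to the 6 genes, the tables list 0 counts for all 6 in both libraries. Their either-strand counts equal their own-strand counts. For Mirlet7e the either-strand count is 0 in both libraries, and the annotated microRNA gene Gm25927 covers the whole hairpin on the other strand.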

How the data were processed

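Small RNA libraries (size range below 30 nt, per the labels) of 2 cortex samples were compared as 1 group. The deposited tables hold raw read counts per microRNA gene on mm10 with GENCODE M21, per the file records deposited with them. Aligner and counter were not given in the sources used here. Column roles (either, own and opposite strand) were read from the values. Own-strand counts were used, and the 4 classes of reads outside genes were left out of library sizes.

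Names and positions came from M21, and sequences from the RefSeq tables. CPM and shares are mean ± SD (n = 2), with exact Clopper-Pearson 95% intervals per library. The binomial test used genes with at least 10 counts in total and was tested on data simulated with counting noise alone, scaled by library totals. That simulation held no spread between libraries and no TMM step, so it does not show how the test behaves with such spread. The members, the lists and the named genes (the 6 genes, their let-7 neighbours, seed relatives, nearest genes by mean CPM and cell type markers) were chosen with earlier results of these data known. Mature arms were searched in annotated transcripts, not in a genome, which was not used here. Alternatives were other scalings, count minimums, count columns, denominators and stretch lengths, and leaving out each replicate. Division by length was added after seeing the data. Python 3.11.15, numpy 2.4.6, pandas 2.3.3, scipy 1.17.1, matplotlib 3.10.9, edgeR 4.0.16 and DESeq2 1.42.0 were used.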

Additional observations from a re-analysis of the deposited data

Results flagged for a closer look

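Gm25927, annotated opposite to Mirlet7e, is listed with 89423 opposite-strand counts in replicate 1 and 85414 in replicate 2, in a column that no comparison used. These values equal the own-strand counts of Mirlet7e in each library. Gm25927 covers the whole Mirlet7e hairpin, so a read on the strand of Mirlet7e there lies opposite to Gm25927. Of all reads, 40.34% (replicate 1) and 38.99% (replicate 2) were placed at several loci, outside every gene count. How many of them came from miR-125b-5p was not tested.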

How the results depend on the processing

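Leaving out a replicate aside, 74 values were recomputed, and 62 kept their direction and side of the threshold or stayed within the spread between replicates. Some of the 62 say nothing of stability. Either-strand counts of the 6 genes equal their own-strand counts, so their CPM changed with the library total alone. For the same reason, the shares in the clusters of Mir99a and Mir100 could not change with either-strand counts. Those 62 include the members called, which went from 4 to 6 with library totals. With all reads as denominator the 6 genes held 1.3%, since that total is larger. With library totals in place of TMM, the log2 ratios of Mir125b-1, Mir125b-2 and Mirlet7c-1 turned to 0.17, 0.21 and 0.033, and Mirlet7c-1 and Mirlet7a-2 were no longer called (exact binomial test, adjusted p = 0.62 and 0.77). Mir125b-2 also turned to 0.0046 with a minimum of 1 count and to 0.030 with either-strand counts, near 0 as before, and Mirlet7a-2 was then not called either (adjusted p = 0.053, exact binomial test, either-strand counts). The either-strand column holds no Mirlet7e counts, which moved the cluster shares of Mir99b to 42.1% and of Mir125a to 57.9%. With 1 mismatch allowed, 4 of the 6 genes had an arm in another microRNA gene, against 2 with exact matches. Stretches of 18 and 22 nt gave the same 2 genes as 20 nt. Leaving out a replicate leaves the values of a single library, which say nothing of stability: the summed share was then 3.22% or 4.24%, and Mir125a was at 8863 or 17523 CPM.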
